A study of Mus musculus with 2 samples.

Results

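The genes described here encode the enzymes that attach ubiquitin to proteins and take it off again. They were compared between D16 and D351, 2 clones of mouse mesoangioblasts measured on 1 Affymetrix MG-U74B array each. Members were the genes whose symbol starts with Trim, Rnf, Fbxo, Fbxw, Fbxl, Usp, Ube2 or Ube3, followed by a digit or by 1 letter and digits. Genes on chromosome 4 between Acer2 and Svbp were left out, which removed 3 of 156 genes (Rnf11, Rnf220 and Usp24). The other 153 genes, of 7542 named on the array, had 223 probe sets. Of these 153 genes, 112 reached a floor of 16.8 (the median of all signals) on at least 1 array and are called measured, and 41 did not. No Ube3 gene has a digit after the prefix, so the class of HECT ligases had no member.

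Both clones were derived from explanted dorsal aorta of C57BL6 embryos at day 9.5, by limiting dilution on mitomycin C-treated embryonic fibroblasts in medium with 20% fetal calf serum. They were then passed to gelatin-coated dishes and expanded, and neither clone carries a named transgene, allele or treatment. Each group is therefore 1 clone and 1 RNA sample, and no difference below could be set against the spread between cultures. In bulk RNA, fewer cells of a type and less RNA per cell cannot be told apart.

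Ubiquitin is passed from an activating enzyme (E1) to a conjugating enzyme (E2), and a ligase (E3) then brings the loaded E2 to the protein to be marked. RING-type ligases, among them the Rnf and Trim families, hold the E2 and the substrate side by side. F-box proteins are the exchangeable substrate receptors of the SCF ligases, which are built on a cullin, and ubiquitin-specific proteases (Usp) remove the mark. Through this system cells set how long cell cycle regulators, signalling proteins and muscle proteins persist.

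The classes differed in how far their genes were spread between the clones. Among Trim ligases 10 of 18 measured genes were at least 2-fold apart, 5 in each direction. Rnf ligases had 6 of 33 past 2-fold, and all 6 were higher in D351. F-box receptors had 3 of 34 past 2-fold, deubiquitinases 6 of 18, and E2 enzymes 0 of 7. For all 4922 measured genes of the array, 18.1% were past 2-fold, 9.49% higher in D351 and 8.57% higher in D16. All members together had 15 genes higher in D351 (13.4%) and 10 higher in D16 (8.93%), and a median log2 ratio of D351 over D16 of 0.01 against -0.01 for all measured genes. Of the 89 members that reached the floor on both arrays, 10 were past 2-fold in each direction, beside 8.12% (D351) and 8.44% (D16) of 4065 such genes of the array, or 16.6% in either direction. Of the 65 members with a higher signal of 53.5 or more, 7 were past 2-fold towards D351 and 8 towards D16, beside 12.1% and 11.5% of all genes this bright. The share of members past 2-fold, 22.3%, thus lay near that of the array.

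The class medians lay close to 0 in spite of these counts. The median log2 ratio was 0.14 for the 7 E2 enzymes, 0.09 for the 51 RING-type ligases, -0.08 for the 34 F-box receptors and 0.05 for the 18 deubiquitinases. Within the RING-type class the Trim median was -0.51 and the Rnf median 0.19. The middle 50% of ratios spanned 2.04 log2 units among Trim genes, 1.10 among Rnf genes and 0.89 among Usp genes. It spanned 0.45 among F-box genes and 0.31 among E2 enzymes, against 0.91 for all measured genes. Of the F-box ratios 8 are bounds, which the floor draws towards 0. For the 26 F-box genes at the floor on both arrays the span was 0.63, against 0.89 for 4065 such genes of the array. The Trim value depends on 5 genes of 1 stretch of chromosome 7 (Trim6, Trim34a, Trim12a, Trim12c and Trim30d), and without them it was 0.91, below that of Rnf genes, with 6 of 13 Trim genes still past 2-fold. The signals of the 89 members at the floor on both arrays correlated between the clones with a Pearson r of 0.793 on the log2 scale (0.800 for 4065 genes of the whole array), a description over genes that share the same arrays.

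**Figure D1:**
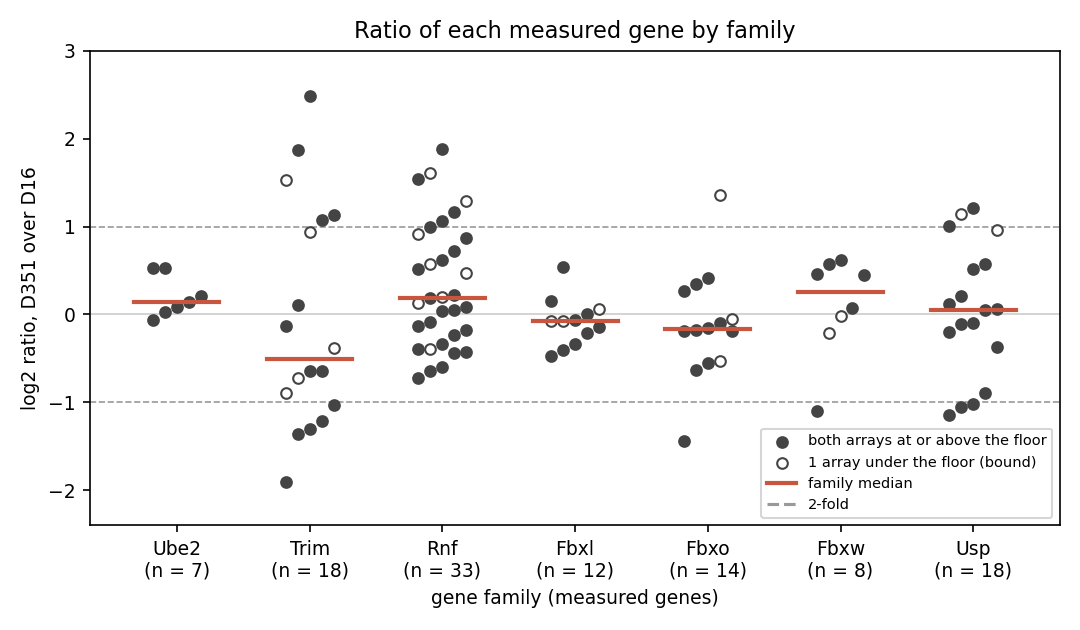
Each point is 1 measured gene, placed by family along the horizontal axis and by its log2 ratio of D351 over D16 on the vertical axis. Filled points reached the floor on both arrays, open points on 1 array (a bound), red bars are family medians and dashed lines mark 2-fold. Trim genes run from -1.91 to 2.49, while the 7 Ube2 genes run from -0.07 to 0.53.

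**Figure D2:**
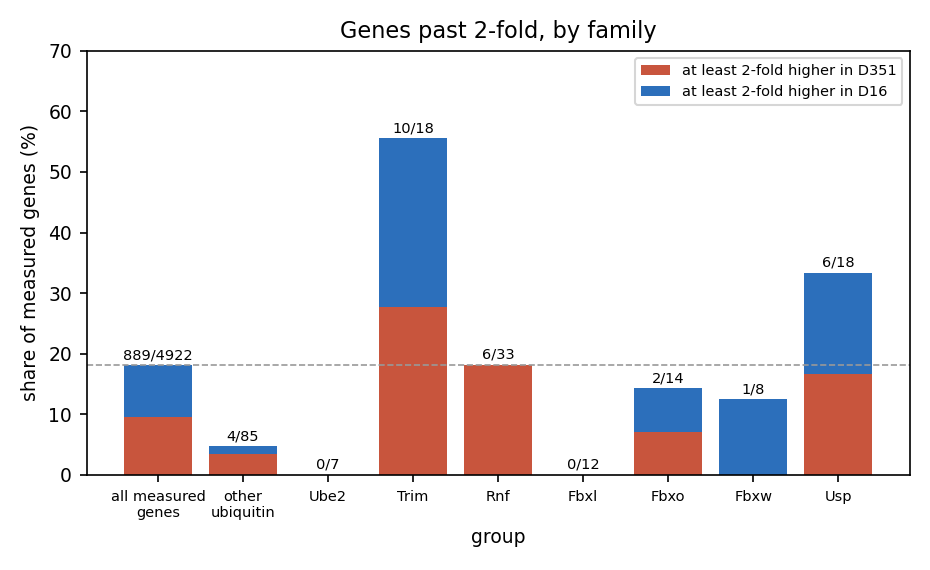
Bars give, in percent of the measured genes, those past 2-fold towards D351 (red) or towards D16 (blue), with the number of genes past 2-fold over the number measured above each bar. The dashed line is the 18.1% of all measured genes. Trim stands at 10 of 18 and the other ubiquitin-system genes, pooled from 7 lists, at 4 of 85.

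The E2 conjugating enzymes were nearly equal in both clones. Ube2g2, which works at the endoplasmic reticulum in the disposal of misfolded proteins, read 184.7 in D16 and 203.2 in D351, and Ube2g1 read 204.1 and 236.0. Ube2v1, a partner without catalytic cysteine that helps build lysine 63-type chains, read 276.8 and 294.4. Its probe set ends in _f, which marks probes that may also match transcripts of related genes. Ube2q1 read 255.4 and 244.0, and Ube2q2 135.1 and 137.7. The 2 members farthest from equal were Ube2d3, an E2 used by many RING ligases (31.7 and 45.7, log2 0.53), and the membrane-bound Ube2j1 (110.0 and 158.1, log2 0.52). All 7 reached the floor on both arrays, and Ube2j2 was under it on both. E2 and HECT genes whose symbol ends in a letter are outside the rule. Among those, Ube2b, which pairs with Rad18 in DNA damage tolerance, read 111.3 and 266.4 (2.39-fold higher in D351), but its other probe set read 51.3 and 24.5. Ube2n, Ube3a, Ube3b and Ube3c were within 2-fold on their brightest probe sets. Another probe set of Ube3c read 34.4 and 14.9 (at least 2.05-fold higher in D16).

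With signals under 16.8 raised to it, the largest ratio of the set in each direction was that of a Trim ligase. Rnf113a2, a bound at this floor, had a log2 ratio of 3.16 when the 25th percentile served as the floor, above that of Trim34a. These proteins carry a RING, B-boxes and a coiled coil, and many act in antiviral defence. On chromosome 7 a run of 10 Trim genes, from Trim6 to Trim30d in the RefSeq order, had 5 members on the array, and they went opposite ways. Trim34a read 21.7 (D16) and 121.9 (D351), a 5.62-fold difference measured with an _f probe set. Trim12c, a mouse relative of the retroviral restriction factor Trim5, read 32.8 and 120.3 (3.67-fold). Trim6 read 27.7 and 58.1 (2.10-fold), and Trim12a 2.8 and 32.2 (at least 1.92-fold). These 4 were higher in D351. Trim30d, at the far end of the run, was higher in D16, with 330.3 and 87.8 (3.76-fold), and its other probe set differed 4.44-fold in the same direction.

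**Figure D3:**
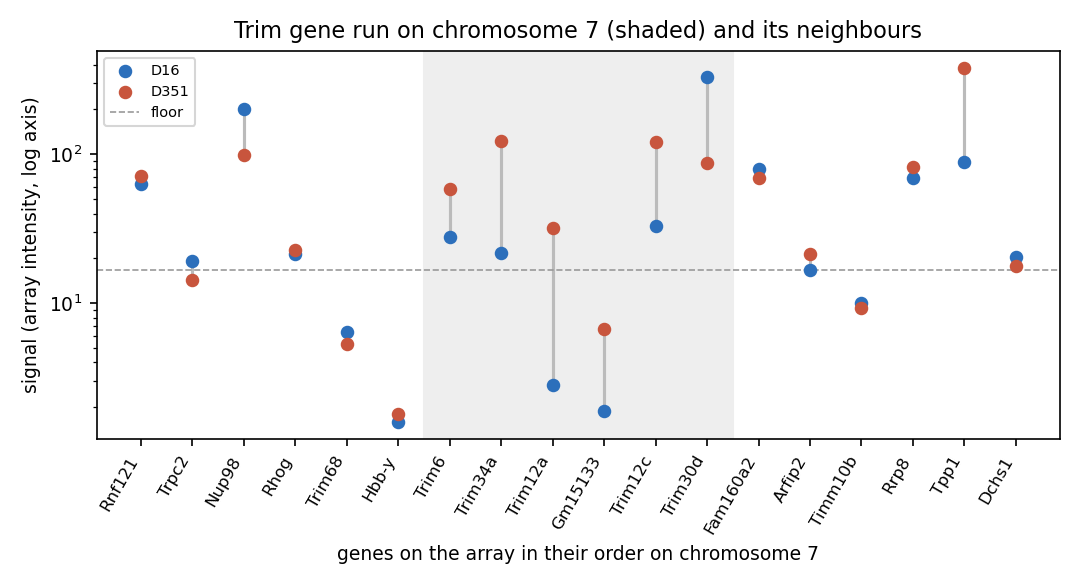
Signals of the genes on the array in their order along chromosome 7, with the Trim run shaded and 6 neighbours on each side; blue points are D16, red points D351, the vertical axis is logarithmic and the dashed line is the floor of 16.8. Where a gene has several probe sets the one with the highest mean is shown. In the run Trim6, Trim34a, Trim12a and Trim12c have the red point on top and Trim30d the blue one.

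The genes that flank this run on the array did not follow one direction. On the Trim6 side, Nup98, a nuclear pore protein, read 202.0 and 98.2 (2.06-fold higher in D16), Rhog 21.5 and 22.7, and Trim68 and Hbb-y were under the floor. On the Trim30d side, Fam160a2 read 79.9 and 69.1 and Rrp8 69.0 and 82.3. Tpp1, a lysosomal peptidase, read 89.1 and 377.1 (4.23-fold higher in D351, _f probe set). Genes of this run are close relatives, so a probe set may also pick up RNA of another member. The second probe set of Trim34a, with the ending _i, read 8.1 and 20.6, a log2 ratio of at least 0.29 against 2.49 on the brighter one.

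Because these genes lie in 1 run, with 8 RefSeq genes of other names among them, and differed in direction, their start regions are shown, from RefSeq on build GRCm38.p6. Each sequence holds 250 bases before and 50 bases after the annotated start, 5′ to 3′ on the gene's strand. Capitals mark the core of the interferon-stimulated response element, searched on both strands as GAAA, any 2 bases and GAAA again.
Trim6, chr7:104218545-104218844, plus strand: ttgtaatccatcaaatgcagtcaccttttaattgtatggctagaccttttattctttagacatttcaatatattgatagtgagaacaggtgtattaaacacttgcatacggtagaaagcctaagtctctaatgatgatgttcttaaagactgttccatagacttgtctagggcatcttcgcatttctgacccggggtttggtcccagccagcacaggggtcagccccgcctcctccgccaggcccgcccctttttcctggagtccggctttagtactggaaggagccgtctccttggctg
Trim34a, chr7:104244207-104244506, plus strand: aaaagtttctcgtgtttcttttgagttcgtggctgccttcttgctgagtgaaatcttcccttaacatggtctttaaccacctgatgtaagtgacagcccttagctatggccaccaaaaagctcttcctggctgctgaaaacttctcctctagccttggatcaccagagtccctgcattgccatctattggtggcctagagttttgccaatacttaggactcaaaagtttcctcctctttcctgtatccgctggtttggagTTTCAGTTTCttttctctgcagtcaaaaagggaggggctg
Trim12a, chr7:104315446-104315745, minus strand: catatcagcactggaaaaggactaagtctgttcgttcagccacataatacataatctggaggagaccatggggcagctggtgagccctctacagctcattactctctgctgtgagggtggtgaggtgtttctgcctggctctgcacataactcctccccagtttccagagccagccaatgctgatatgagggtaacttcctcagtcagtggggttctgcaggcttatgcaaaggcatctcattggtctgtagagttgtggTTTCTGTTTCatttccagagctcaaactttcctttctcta
Trim12c, chr7:104353300-104353599, minus strand: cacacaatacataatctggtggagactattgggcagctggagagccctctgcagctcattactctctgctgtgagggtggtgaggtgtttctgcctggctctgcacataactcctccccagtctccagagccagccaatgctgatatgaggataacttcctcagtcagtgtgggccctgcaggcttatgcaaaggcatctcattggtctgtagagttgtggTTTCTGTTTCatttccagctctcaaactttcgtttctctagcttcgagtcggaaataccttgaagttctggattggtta
Trim30d, chr7:104507800-104508099, minus strand: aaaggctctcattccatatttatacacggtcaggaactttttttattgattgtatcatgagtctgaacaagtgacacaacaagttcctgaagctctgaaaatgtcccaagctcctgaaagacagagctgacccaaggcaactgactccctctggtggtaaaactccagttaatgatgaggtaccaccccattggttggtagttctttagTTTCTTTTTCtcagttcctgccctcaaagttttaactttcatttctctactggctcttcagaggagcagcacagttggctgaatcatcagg

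The motif was found once in Trim34a, Trim12a, Trim12c and Trim30d and was not among the letters of the Trim6 window. All 4 matches lay on the opposite strand, so that they read as TTTC, 2 bases and TTTC in these lines. They began at base 11 after the start in Trim34a and Trim12a, and at 29 and 41 bases before it in Trim12c and Trim30d. The motif therefore stood beside genes higher in D351 and beside 1 gene higher in D16. Of all 32851 RefSeq start regions of this length, 3.44% held it, and of 34 start regions found for 24 of the 31 Trim members, 17.6% did. That share stands for 6 start regions. The 4 of the chromosome 7 run shown here are among them, and the others belong to Trim2 and Trim26. Trim12a and Trim12c shared 247 of 300 bases in a global alignment, and the other pairs shared 132 to 156.

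Outside the chromosome 7 run, Trim genes past 2-fold were higher in D16 in 4 cases and in D351 in 2. Trim2, a ligase for neurofilament light chain, read 232.1 in D16 and 90.6 in D351 (2.56-fold). Its other 3 measured probe sets had log2 ratios of -0.80, -0.71 and -0.26, the last as a bound, so that all 4 lay on the D16 side. Trim32, a ligase mutated in a limb-girdle muscular dystrophy, read 102.9 and 41.8 (2.46-fold). Trim59 read 214.1 and 92.5 (2.31-fold), and Trim16, which lacks a RING, 94.9 and 46.3 (2.05-fold). These 4 genes were each lower in D351. Trim46, known for organising microtubules at the start of the axon, read 16.2 and 48.5 (at least 2.89-fold higher in D351). Trim23, which joins a RING to a GTPase domain, read 20.8 and 45.6 (2.19-fold), with at least 0.15 on the log2 scale on an _r probe set, a design made under relaxed rules.

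Further Trim genes lay below 2-fold on the D16 side. Trim26 read 255.9 and 164.2 on its brightest probe set (log2 -0.64), -0.60 on a second and -1.25 on a _g probe set. Trim24, a nuclear receptor cofactor, read 108.6 and 69.7, and Trim56 31.3 and 16.2 (at least 1.86-fold). Trim33, a ligase and cofactor in TGF-beta signalling, was close to equal (236.8 and 216.6). In all, 11 of the 18 measured Trim genes had a ratio below 0. A further 13 Trim genes, among them Trim8, Trim9 and Trim44, were under the floor on both arrays.

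Members linked to interferon responses went both ways. Of 8 such genes on the array, all measured, 2 were past 2-fold towards D351 (Trim34a and Trim12c) and 1 towards D16 (Trim30d), beside 9.49% and 8.57% of all measured genes. All 3 lie in the chromosome 7 run. Rnf135, known as Riplet, which activates the RNA sensor RIG-I, read 25.4 and 50.5 (1.99-fold, just short of the 2-fold rule). Rnf125, which marks RIG-I for degradation, read 22.1 and 12.3. Among 11 measured interferon response genes that are not members, 2 were past 2-fold towards D351 and 1 towards D16, with a median log2 ratio of 0.38. Their summed signal was 727.9 in D16 and 952.0 in D351, and its part in the Trim values was not tested.

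Rnf ligases past 2-fold were all higher in D351. Rnf144a, a ligase of the RING-between-RING type, read 25.6 in D16 and 94.0 in D351 (3.67-fold). Its other probe set read 21.3 and 7.9, in the opposite direction (log2 at most -0.34). Rnf122 read 15.3 and 51.2 (at least 3.05-fold), and Rnf215 17 and 49.3 (2.90-fold, with its D16 signal just above the floor of 16.8). Both encode membrane RING proteins. Rnf113a2, a copy of a splicing-related RING gene, read 1.8 and 41.2 (at least 2.45-fold, a bound set by the floor). Rnf146, which recognises poly-ADP-ribosylated axin and thereby favours Wnt signalling, read 198.1 and 446.0 (2.25-fold). Rnf41, also called Nrdp1, a ligase for the receptor ErbB3, read 102.2 and 213.7 (2.09-fold) on an _r probe set, while its plain probe set read 45.6 and 39.4 (log2 -0.21). The D351 direction of Rnf144a and of Rnf41 therefore rests on 1 probe set each, with another measured one on the D16 side. Rnf122, Rnf215, Rnf113a2 and Rnf146 also rest on 1 measured probe set each, with no second measured one to compare. Neither array reached the floor on the other probe set of Rnf113a2 or of Rnf146.

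Among the Rnf genes within 2-fold, the ratios lay on both sides of 0. Rnf111, or Arkadia, which clears inhibitors of TGF-beta signalling, read 106.0 and 163.0, with log2 ratios of 0.62 and 0.57 on its 2 probe sets. Rnf217 read 104.0 and 171.4 (log2 0.72), and Rnft1 37.5 and 68.3 (log2 0.86). Rnf40, a partner in histone H2B ubiquitination, was on the other side with 131.9 and 79.9 (log2 -0.72), as was Rnf126 with 255.7 and 163.0 (log2 -0.65). Rnf168, which marks histones at DNA breaks, had log2 ratios of -0.60, -0.63 and 0.41 on 3 probe sets. Rnf130, a membrane ligase, read 256.3 and 266.0, and Rnf139, a ligase of the endoplasmic reticulum, read 228.2 and 242.3. Of the 33 measured Rnf genes 21 had a ratio above 0, and 18 more Rnf genes were under the floor on both arrays.

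F-box receptors had few differences of 2-fold. Fbxo5, known as Emi1, the inhibitor of the anaphase-promoting complex, read 94.4 in D16 and 34.7 in D351 (2.72-fold higher in D16). Fbxw4, whose disruption causes the mouse limb malformation dactylaplasia, read 53.1 and 24.7 (2.15-fold) on an _r probe set, with a log2 ratio of -0.72 on another _r probe set. Fbxo32, or atrogin-1, a ligase subunit of muscle atrophy, read 11.3 and 43.2 (at least 2.57-fold higher in D351), and neither array reached the floor on its other probe set. These 3 of 34 measured F-box genes, 8.82%, stand beside 18.1% of all measured genes. Among genes whose higher signal reached 53.5, the 75th percentile, 1 of 16 F-box genes was past 2-fold, beside 23.6% of 2962 genes of the array.

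The Fbxl family had 0 of 12 measured genes past 2-fold, with log2 ratios from -0.47 to 0.54, 3 of them bounds. Fbxl4, a mitochondrial F-box protein, read 195.1 and 176.0, and Fbxl20 read 124.5 on both arrays. Of the 9 Fbxl genes at the floor on both arrays, Fbxl17 had the highest ratio (86.0 and 125.3) and Fbxl6 the lowest (84.0 and 60.5). Fbxo7, which takes part in mitophagy, read 174.0 and 153.0. Fbxw7, the receptor for cyclin E, Myc and Notch, read 45.5 and 62.1 (log2 0.45), and Fbxw8 168.4 and 258.6 (log2 0.62, _s probe set). Fbxo34 differed between its probe sets, with 238.9 and 287.1 on an _f probe set but 25.7 and 95.8 (3.73-fold) on an _i probe set. Fbxl22, a cardiac sarcomere ligase subunit, was above the floor on the D351 array alone (3.9 and 17.6).

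Genes linked to the cell cycle lay on both sides. Of 15 measured members with such a role, 11 had a ratio below 0, beside 2495 of all 4922 measured genes. Past 2-fold were 3 towards D16 (Fbxo5, Trim59 and Usp28) and 1 towards D351 (Usp13), beside 8.57% and 9.49% of all measured genes, and the difference was not tested. Usp37, which stabilises cyclin A, read 35.0 and 18.9 (log2 -0.89), and Trim37, a centrosome ligase, 27.8 and 16.3 (at least 1.65-fold). On the D351 side, Usp16 read 11.2 and 32.7 (at least 1.95-fold) and Fbxw7 had a log2 ratio of 0.45. Fbxo31 read 123.5 and 79.5 (log2 -0.64, with at least 0.03 on another probe set), while Fbxo4, Fbxl8, Fbxl12, Usp7 and Ube2q1 lay within 0.2 of 0 and Trim36 was under the floor. Of 25 proliferation markers 5 were on the array, and 4 of these 5 were at least 2-fold higher in D16. Their summed signal was 866.9 in D16 and 258.5 in D351, with none listed at 0, and their part in the ratios of these members was not tested.

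The start regions of Fbxo5 and Trim59 are printed as examples of cell cycle members past 2-fold towards D16 that hold a short motif. The start region of Usp28, the other such member, did not hold it. Capitals mark the letters TTTGAA of the cell cycle gene homology region, searched on both strands of the same RefSeq windows.
Fbxo5, chr10:5805416-5805715, minus strand: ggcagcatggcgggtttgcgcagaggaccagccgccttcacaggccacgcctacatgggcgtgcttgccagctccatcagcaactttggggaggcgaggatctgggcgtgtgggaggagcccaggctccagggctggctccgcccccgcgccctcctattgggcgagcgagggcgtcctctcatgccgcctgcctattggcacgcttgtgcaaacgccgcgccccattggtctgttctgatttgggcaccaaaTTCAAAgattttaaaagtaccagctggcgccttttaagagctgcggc
Trim59, chr3:69044693-69044992, minus strand: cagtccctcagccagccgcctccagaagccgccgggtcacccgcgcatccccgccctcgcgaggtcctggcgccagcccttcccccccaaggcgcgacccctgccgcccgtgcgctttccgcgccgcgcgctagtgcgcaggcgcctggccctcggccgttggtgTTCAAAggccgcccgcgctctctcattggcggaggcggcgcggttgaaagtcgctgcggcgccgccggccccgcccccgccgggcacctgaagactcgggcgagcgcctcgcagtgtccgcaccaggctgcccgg

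In both genes the match was on the opposite strand (TTCAAA in these lines), at base 4 after the start in Fbxo5 and 85 bases before it in Trim59. This short motif stood in the start region of 20.2% of all 27025 genes. Among members with a start region in the table it was found in 4 of 8 genes at least 2-fold higher in D16 (Fbxo5, Trim59, Trim2 and Trim32), in 0 of 11 past 2-fold towards D351, and in 5 of 72 measured members within 2-fold. The E2F sites TTTCCCGC and TTTGGCGC, both strands, were found in 0 of these 8 and 0 of these 11 genes. Among all 27025 genes, 1.8% held such a site. A gene with several start regions counts once if any of them holds the letters. Counted by start region, TTTGAA was in 4 of 12 towards D16, 0 of 14 towards D351 and 5 of 92 within 2-fold. Of all start regions 17.9% held it. A match describes letters in these windows and not a bound site.

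Deubiquitinases were past 2-fold in both directions, with 3 genes each. Usp11, an X-linked protease of DNA repair, read 31.9 in D16 and 73.8 in D351 (2.31-fold) on an _r probe set. Usp13 read 15.4 and 37.0 (at least 2.20-fold), with 2.1 and 49.7 (log2 at least 1.56) on another probe set. Usp12 read 20.0 and 40.1 (2.00-fold), at the edge of the rule. On the D16 side, Usp31 read 55.6 and 25.2 (2.21-fold), Usp45, which acts with the repair nuclease ERCC1, 89.5 and 43.0 (2.08-fold), and Usp28, a stabiliser of Myc, 40.6 and 20.1 (2.02-fold). Of these 6 all but Usp13, whose ratio is a bound, reached the floor on both arrays.

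The other 12 measured deubiquitinases did not reach 2-fold at this floor. Usp22, of the SAGA coactivator complex, read 487.4 and 527.3, and another probe set had a log2 ratio of -0.42. Usp34, a very large protease that acts on axin, read 184.5 and 264.8 (log2 0.52), and Usp16, given above with the cell cycle genes, acts on histone H2A. Usp36 was close to equal on its brightest probe set (75.5 and 70.5) but read 14.8 and 44.7 on another (at least 2.66-fold higher in D351), so its probe sets did not point one way. Usp25, Usp43, Usp48 and Usp53 were under the floor on both arrays. The symbol rule also took in 2 genes that are not ubiquitin-specific proteases, and they were kept out of this class. Usp6nl, a GTPase-activating protein for Rab proteins, read 80.4 and 41.0 (log2 -0.97), and Uspl1, a SUMO protease, 100.3 and 87.0.

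**Figure D4:**
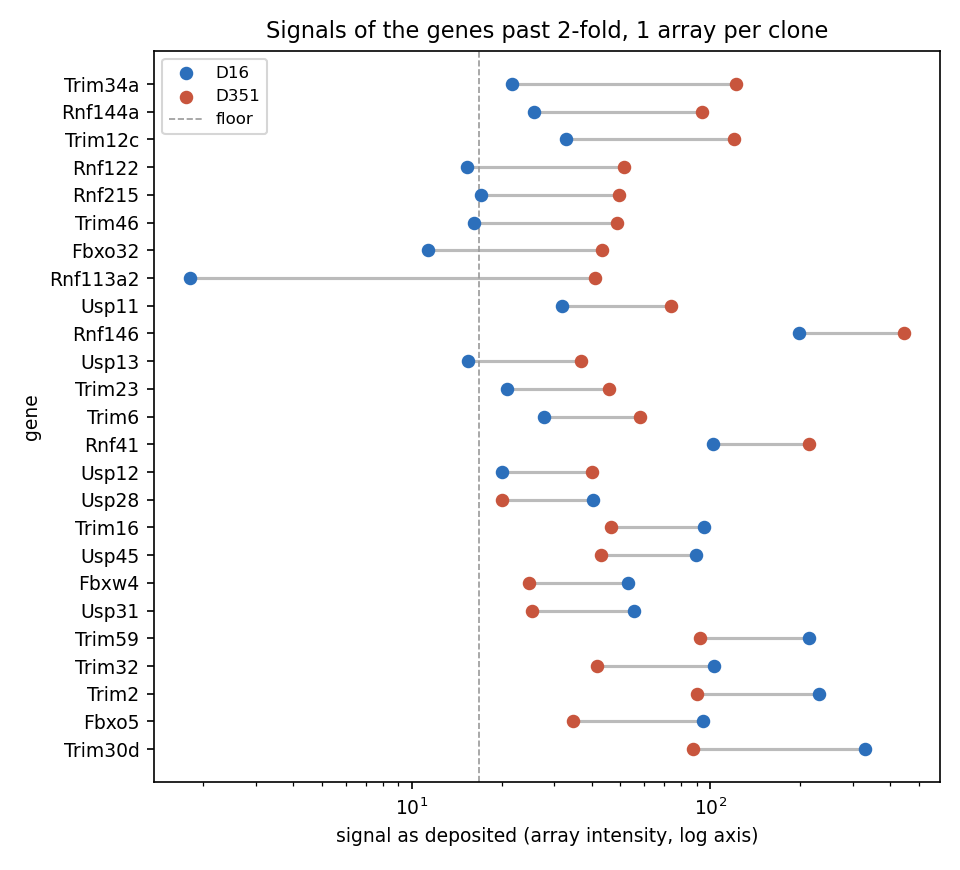
Deposited signals of the 25 members past 2-fold, 1 row per gene in the order of their ratios, with D16 in blue, D351 in red, a logarithmic horizontal axis and the floor of 16.8 as a dashed line. Levels of different genes come from different probes and are not to be compared. In 5 genes (Rnf122, Trim46, Fbxo32, Rnf113a2 and Usp13) the D16 signal is under the floor, and in the 10 genes at the bottom D16 is on the right.

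Other parts of the ubiquitin system, taken from 7 lists with no member in them, had fewer genes past 2-fold. Of 85 measured genes 4 were past 2-fold (4.71%), 3 higher in D351 and 1 in D16. The middle 50% of their ratios spanned 0.91 log2 units, close to the 0.91 of all measured genes. Past 2-fold were Marchf8, a membrane RING ligase (31.4 and 87.1, 2.77-fold), Uhrf2, a RING protein that binds chromatin (186.5 and 406.4, 2.18-fold), the deubiquitinase Mindy2 (81.8 and 165.2, 2.02-fold) and, towards D16, the deubiquitinase Otud1 (50.8 and 13.1, at least 3.02-fold). By list, past 2-fold were 0 of 17 cullin scaffold and adaptor genes, 0 of 12 other HECT ligases, 0 of 5 genes of the anaphase-promoting complex, 0 of 4 proteasome genes and 0 of 2 E1 and E4 genes. Unlike the members, the lists kept genes between Acer2 and Svbp (Klhl9 and Hectd3). The cullin list also holds Skp2, Btrc and Ccnf, F-box proteins whose symbols are outside the rule. Cul1, the scaffold on which F-box proteins sit, read 329.4 and 273.8 on an _r probe set, and Cand1, which exchanges F-box proteins on it, 374.5 and 464.2. Uba6, an E1, read 353.5 and 246.0. The lists reach the 2-fold rule less often than the 18.1% of the array, and the difference between them and the members was not tested.

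Members were spread over 20 chromosomes, and a few of those past 2-fold lie on chromosomes whose median was off 0 in the same direction. Trim32 and Usp45 lie on chromosome 4, whose 295 measured genes had a median log2 ratio of -0.34. That median includes the genes between Acer2 and Svbp, which were left out of the members, and was not recomputed without them. Rnf146 and Rnf41 lie on chromosome 10, with a median of 0.35. Usp11 is on the X chromosome (median 0.39) and Usp31 on chromosome 7 (median -0.22). With each chromosome's median taken off, these 6 genes kept their direction but no longer reached 2-fold, and the other 19 of the 25 did. Their log2 ratios then were -0.96 for Trim32, -0.92 for Usp31, -0.72 for Usp45, 0.82 for Rnf146, 0.82 for Usp11 and 0.72 for Rnf41.

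Where a member had 2 or more measured probe sets, these often gave different ratios. In 28 such genes the ratios of the 2 brightest probe sets lay on the same side of 0 in 14, and the SD of their difference was 0.91 on the log2 scale, against 771 of 1113 and 0.71 for all genes of the array. Of 8 genes whose brightest probe set was past 2-fold, 6 had the second on the same side, and in 2 (Trim30d and Usp13) the second was also past 2-fold. For 84 of the 112 measured members there was 1 measured probe set and no such check.

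**Figure D5:**
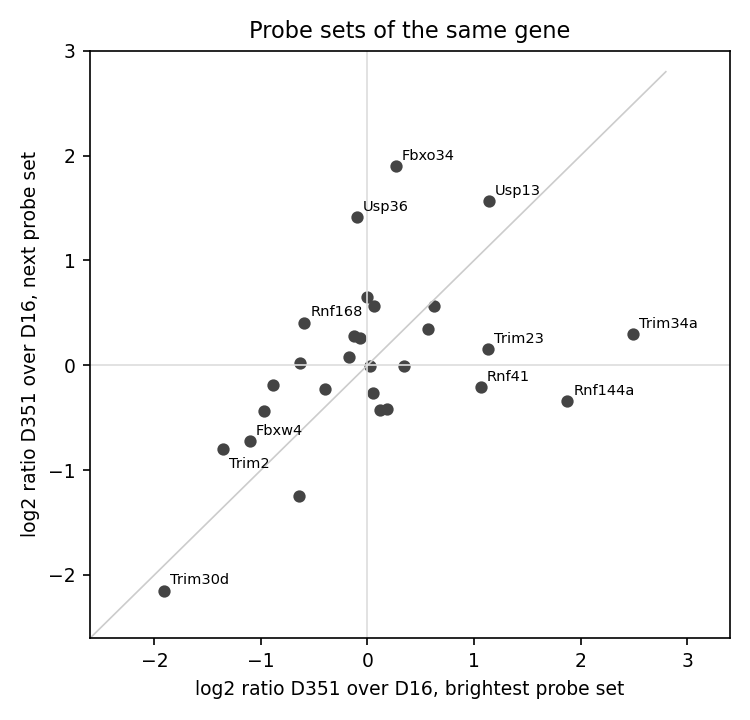
Log2 ratio of D351 over D16 on the brightest probe set (horizontal) and on the next one (vertical) for the 28 members with at least 2 measured probe sets; the grey diagonal marks equal ratios, and labels name genes past 2-fold on the brightest probe set or over 1 log2 unit apart. Trim30d sits low on the left at -1.91 and -2.15, while Rnf144a (1.88 and -0.34) and Trim34a (2.49 and 0.29) lie far off the diagonal.

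The labelled cell type could be checked on a few markers. Of 10 smooth muscle markers 5 were on the array and 3 measured, with Myh11 at 36.8 and 35.6, Mylk at 21.1 and 148.5, Cald1 at 874.9 and 1357.6, and Myocd and Actg2 under the floor. Of the endothelial list Flt1 read 10.3 and 44.5 and Eng was under the floor. Of the pericyte list Cspg4 read 83.3 and 26.1, and Rgs5 and Abcc9 were under the floor. Of 8 blood markers Runx1 was on the array (45.4 and 61.1), and 0 of 10 skeletal muscle markers were. Of 20 genes listed as markers of embryonic fibroblasts, the feeder cell type, 6 were on the array. Of these, 5 lay past 2-fold towards D351 and 1, Tcf4, towards D16. Summed signals were 997.2 in D16 and 2454.2 in D351, with none listed at 0. Tcf4 here is the chromosome 18 gene, which entered these sums with 544.8 and 205.6. Whether it marks fibroblasts was not checked. The part of the listed fibroblast markers in the D351-side values of Rnf and Trim genes was not tested.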

How the data were processed

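RNA of 2 clones (1 array each) was measured on MG-U74B arrays. The deposited values are linear signal intensity per probe set, as the authors processed them; software, background correction and presence calls are not given in the sources used here. Both arrays had a 2% trimmed mean of 40.0 and were used as deposited. Signals summed to 653854 (D16) and 646285 (D351), and 66 control probe sets of 12477 were left out. Names came from GEO's platform annotation, with order and start regions from RefSeq (GRCm38.p6); of 10581 probe sets with 1 symbol, 10550 matched by gene identifier.

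Values under 16.8, the pooled 50th percentile, were raised to it before taking log2(D351/D16), so such a ratio is a bound. Of several probe sets per gene, the one with the highest mean signal over both arrays stood for it, and the size rule was 2-fold. With 1 array per clone no p-value, interval or SD between arrays of a clone was computed, so the number of arrays limits the precision. The SD given for probe sets is over genes.

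Members, classes and lists were chosen with earlier results of these data known. Named are all members past 2-fold, 2 members per class with the highest mean, members of 3 role lists, members with conflicting probe sets, and up to 4 genes per other list; further members illustrate a family and were chosen after their values were seen. Alternatives were 3 scalings (common median, quantile, lowess, span 0.3), a lower and a higher floor (25th and 75th percentiles), 1.5-fold and 3-fold rules, the median over probe sets, plain probe sets, both arrays at the floor, letter-only symbols, chromosome medians and, added later, leaving out the chromosome 7 Trim run. The steps were tested on simulated data, with changes larger than 2-fold placed in brighter genes and little added noise. That test does not cover 2-fold calls near the floor. Python 3.11.15, numpy 2.4.6, pandas 2.3.3 and statsmodels 0.14.6 were used.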

Additional observations from a re-analysis of the deposited data

How the results depend on the processing

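The class and member medians moved by at most 0.2 under every alternative run, from -0.17 to 0.18. The medians of all members, of RING-type ligases and of deubiquitinases changed sign within that range, so they carry no direction. The 3 scalings left 24 of the 25 genes past 2-fold, Usp12 being the exception. With the floor at the 25th percentile, 22 members were past 2-fold towards D351 and 16 towards D16. Among them were 15 Trim, 10 Rnf, 6 F-box and 7 Usp genes. The members' shares were 15.7% and 11.4%, beside 11.9% and 11.5% of all genes measured at that floor. With the floor at the 75th percentile, which leaves 65 members measured, the counts were 4 towards D351 and 3 towards D16. They comprised 5 Trim, 2 Rnf, 0 F-box and 0 Usp genes. As shares this was 6.15% and 4.62% of members, beside 7.12% and 6.34% of all genes measured there. A 1.5-fold rule gave 23 and 20 members (20.5% and 17.9%, beside 19.3% and 20.4% of all measured genes), 14 Rnf and 5 F-box genes. A 3-fold rule gave 4 and 1 members (3.57% and 0.89%, beside 3.6% and 2.78% of all measured genes). These were 3 Trim, 2 Rnf, 0 F-box and 0 Usp genes. Adding the letter-only symbols put 1 E2 gene (Ube2b) past 2-fold. With chromosome medians taken off, 3 Usp genes were past 2-fold. Without the chromosome 7 run, an alternative chosen after seeing the data, 6 of 13 Trim genes were past 2-fold. On plain probe sets alone Rnf41 lay on the D16 side (log2 -0.21), and with the median over probe sets Rnf144a, Rnf41, Trim2, Trim23 and Fbxw4 fell short of 2-fold. No paired analysis was possible because each clone has 1 array. Signals near or under the floor limit the 23 members measured on 1 array to bounds.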
